A study of Mus musculus with 6 samples.

Results

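This account concerns 10 genes of the smooth muscle contractile apparatus and its regulator Srf in mouse embryonic stem cells in which the transcription factor Lef1 was induced: Acta2, Tagln, Actg2, Cnn1, Cnn2, Myl9, Tpm1, Tpm2, Actc1 and Srf. They were taken by symbol from the authors' deposited table of 36699 rows, each has 1 row there that names no other gene, and all 10 were among the 18114 rows that the authors tested. The genes were chosen by name with their FPKM values and folds in both groups already known, so these folds and calls describe these libraries and support nothing beyond them.

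RNA of A2Lox.cre embryonic stem cells, a line designed to receive a transgene under doxycycline control, was sequenced after capture on oligo-dT beads. All 6 libraries came from cells labelled as carrying inducible Flag-Lef1 and harvested on day 3 of embryoid body culture, in which the cells grow as floating aggregates and begin to differentiate. In 3 libraries (plus_Dox, numbered 1, 2 and 3) doxycycline was added on day 2 for 24 h, and in the other 3 (minus_Dox, numbered 1, 3 and 4) it was withheld. The labels list no group that received doxycycline without the transgene, so an effect of the drug and one of Lef1 cannot be told apart here. The stem cells had been maintained on primary embryonic fibroblasts, which were stripped away before aggregation. Whether the libraries are from separate cultures is not stated, so the spread behind the p-values may be technical.

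The table gives 1 FPKM value per gene and group (fragments per transcript length and library size), which the authors computed over the 3 libraries. Levels of single libraries and their depth are therefore unknown, and whether libraries of the groups overlap cannot be seen. Each log2 fold carries a standard error (SE) derived from the authors' statistic, and a gene is called where the authors' q-value is at most 0.05. Lef1 was higher in plus_Dox, at 51.0 against 7.56 FPKM in the authors' deposited table (6.75-fold, 95% interval 5.21 to 8.74), in the direction of the labels. Of the tested rows 12.2% were called. The median log2 fold of tested genes with at least 1 FPKM was 0.20, so a gene at that value stood at the middle of all genes and not above it.

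Contractile force in smooth muscle comes from myosin pulling on filaments of actin. Tropomyosins lie along the actin filament, calponins and transgelin bind it, and the regulatory light chain Myl9 switches the myosin on when it is phosphorylated. The serum response factor Srf binds a short DNA element, the CArG box, in the promoters of many of these genes. It acts with Mkl (myocardin-related) cofactors, which enter the nucleus when actin polymerises, or with Elk factors downstream of ERK kinase. The same proteins are found in stress fibres of cells that are not muscle.

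All 10 genes had a higher value in plus_Dox, with log2 folds from 0.43 to 1.01 and a median of 0.77, where 65.1% of the 17830 tested rows with a finite fold were above 0 and their median was 0.20. The authors' test called 6 of them higher (Tagln, Acta2, Tpm1, Tpm2, Cnn2 and Cnn1), and its q-values, from the authors' deposited table, ran from 2.17e-06 for Tagln to 0.00167 for Tpm2. It called 4 not (Actg2, Myl9, Actc1 and Srf) and none lower. Of all tested rows 8.98% were called higher and 3.22% lower, which is given as background since the genes were chosen on this contrast. Summed over the 10 genes, the level went from 429 to 762 FPKM, 1.78-fold. In RNA from whole embryoid bodies, more cells of a type and more RNA per cell cannot be told apart.

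**Figure D1:**
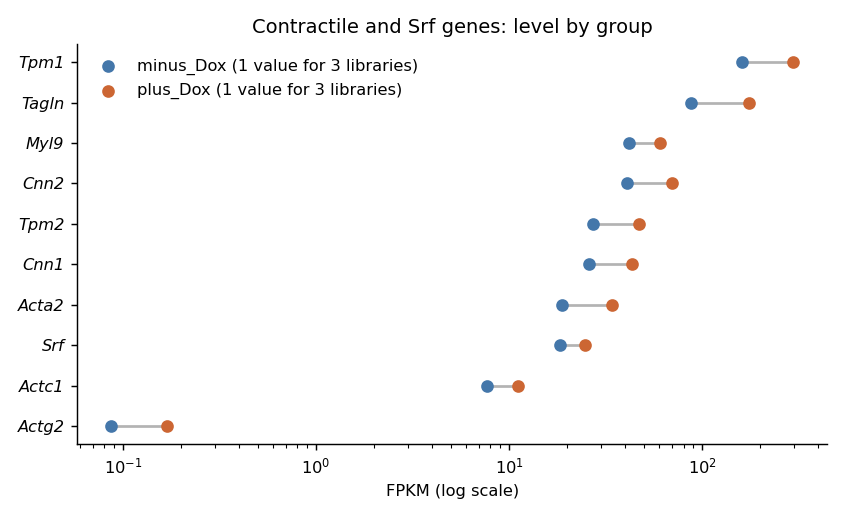
Level of each gene in FPKM (horizontal log axis) in minus_Dox (blue) and plus_Dox (orange), each point being the authors' 1 value for 3 libraries, so no error bar can be drawn. Tpm1 stands highest at 161 and 296 FPKM and Actg2 lowest at 0.0869 and 0.168 FPKM, and every orange point lies to the right of its blue point.

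The order of the levels was nearly the same in both groups. Tpm1 was highest, at 161 FPKM in minus_Dox and 296 FPKM in plus_Dox, and alone made up 37.5% and 38.9% of the sum. Tagln came next, and together with Tpm1 it held more of the sum than the other 8 genes. Myl9 and Cnn2 came after them in minus_Dox (41.5 and 40.9 FPKM) and changed places in plus_Dox (60.3 and 69.3 FPKM). Tpm2, Cnn1, Acta2, Srf, Actc1 and Actg2 followed in this order in both groups. Without values of single libraries, differences between neighbours in this order were not tested.

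The regulator Srf itself was measured at 18.2 FPKM in minus_Dox and 24.6 FPKM in plus_Dox in the authors' deposited table. The log2 fold of 0.43 had an SE of 0.76, so the 95% interval of the fold ran from 0.480 to 3.79 and neither a fall nor a rise of the Srf transcript could be detected. This SE was over 3 times that of each of the other genes except Actg2 (0.61). The Srf row lies on chromosome 17 (46579397 to 46968362 in mm9) in a stretch 49.6 times the span of the gene in GENCODE. The same stretch is listed for 19 other rows, among them Mea1, Klhdc3 and Ptk7 (chosen after their values were seen), each with its own FPKM values. Of these, 17 were tested, 0 were called higher and 0 lower, and their median log2 fold was 0.53. Srf thus has a separately listed level within a shared stretch. How the authors' software divided reads among these rows was not examined.

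Promoter sequence near the starts of the genes was searched for CArG boxes. RefSeq windows of 300 bases (250 before to 50 after an annotated start, GRCm38.p6) were found for 8 of the 10 genes, and Tagln and Actg2 had none. A CArG box, searched on both strands by its usual form of a pair of C, 6 bases of A or T and a pair of G, occurred in 4 of the 8 windows (Srf, Cnn2, Myl9 and Actc1). Over all 32851 windows of this length 1.63% held one. When 1 other base was allowed in the A/T core, Acta2 joined them, for 5 of 8 against 9.98% of all windows. The windows of Cnn1, Tpm1 and Tpm2 held neither form. The 10 genes were chosen by name as contractile genes and Srf targets. The shares with a box are therefore a description and no independent finding. The stretches below are shown because they carry these boxes, in capitals, 5′ to 3′ in the direction of transcription and upstream of the start only.
Srf (chr17:46556190-46556269, minus strand): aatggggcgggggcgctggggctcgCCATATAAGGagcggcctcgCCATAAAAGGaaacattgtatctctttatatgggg
Cnn2 (chr10:79988519-79988578, plus strand): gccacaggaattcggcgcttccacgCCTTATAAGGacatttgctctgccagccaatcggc
Myl9 (chr2:156775278-156775399, plus strand): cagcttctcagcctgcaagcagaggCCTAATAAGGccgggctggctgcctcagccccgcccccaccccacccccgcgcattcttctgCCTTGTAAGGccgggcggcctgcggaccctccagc
Actc1 (chr2:114052888-114053075, minus strand): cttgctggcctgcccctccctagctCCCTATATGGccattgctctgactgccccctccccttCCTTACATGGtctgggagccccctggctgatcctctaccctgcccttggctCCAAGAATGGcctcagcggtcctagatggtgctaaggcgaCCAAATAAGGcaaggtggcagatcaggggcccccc
Acta2 (chr19:34255374-34255482, minus strand): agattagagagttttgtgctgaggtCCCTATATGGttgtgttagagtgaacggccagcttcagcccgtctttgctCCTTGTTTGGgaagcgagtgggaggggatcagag

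The Srf stretch holds 2 boxes of the strict form, whose first bases lie at -82 and -62 from the start. Cnn2 has 1, at -56. Myl9 has 1 at -161 and a box with 1 other base in its core at -99. Actc1 has the strict form at -47 and 3 boxes with 1 other base further upstream. Acta2 has 2 boxes with 1 other base, at -84 and -34, and its first box reads the same as the most distant box of Actc1. The Tcf/Lef words, the kind of element that Lef1 binds, were searched on both strands. The forms were AACAAAG and ATCAAAG as well as TACAAAG and TTCAAAG. A word occurred in 0 of the 8 windows and in 16.9% of all windows. Of the 4 genes with the strict form Cnn2 was called and Srf, Myl9 and Actc1 were not. Acta2, with boxes of 1 other base, was called, and so were Cnn1, Tpm1 and Tpm2 without a box in this window. The 8 genes were chosen on this contrast, and whether boxes and calls are related was not tested. A match is a description of letters, and letters that are missing here say nothing about elements elsewhere in the gene.

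**Figure D2:**
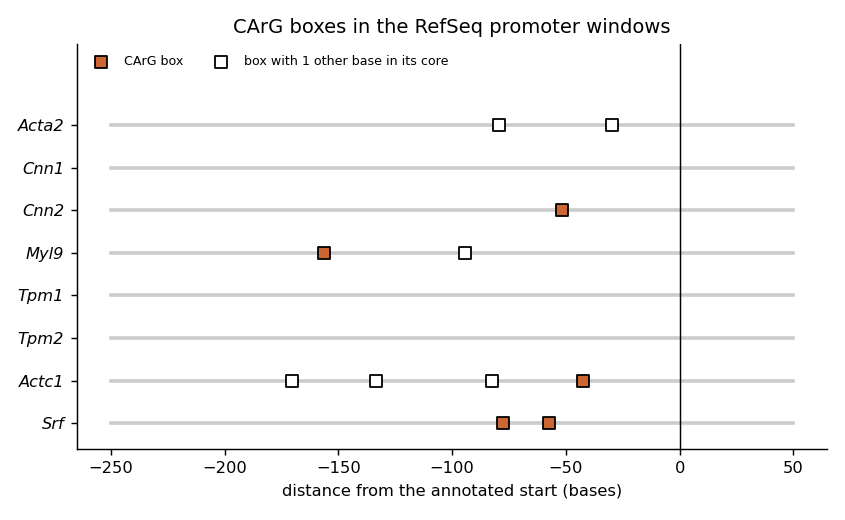
Position of CArG boxes (filled squares) and of boxes with 1 other base in the A/T core (open squares) in the RefSeq promoter windows of the 8 genes that have one, as distance in bases from the annotated start at 0. Boxes lie upstream of the start in Acta2, Cnn2, Myl9, Actc1 and Srf, and the windows of Cnn1, Tpm1 and Tpm2 are empty.

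Among the 3 actins of the set, Acta2, the alpha-actin of vascular smooth muscle, stood highest. Per the authors' deposited table it stood at 18.8 FPKM without doxycycline and rose to 34.1 FPKM with it, which is 1.82-fold (95% interval 1.45 to 2.28; log2 fold 0.86, SE 0.17). Its row lies on chromosome 19 (34315580 to 34329826 in mm9) and is as wide as the gene. Actc1, the cardiac alpha-actin that embryonic smooth muscle also uses, was listed at 7.68 and 11.1 FPKM in the authors' deposited table (1.45-fold, interval 1.11 to 1.89). With a q of 0.0513 it lay just outside the threshold, so it stands as not called. Actg2, the gamma-actin of gut smooth muscle, was close to absent at 0.0869 and 0.168 FPKM in the authors' deposited table, and its interval of 0.841 to 4.44 covers both a fall and a rise. The Actc1 row covers 9.37 times the span of the gene (chromosome 2 from 113835337 to 113894060 in mm9), a stretch shared with 2 rows of neighbouring genes.

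Actins are near-identical proteins, so shared reads were considered. Of 1986 stretches of 50 bases in the Acta2 transcript, 7 (0.352%) occurred without a mismatch in transcripts of other genes, including Actg1. For the other 9 genes no stretch of this length did. Read length and the authors' treatment of shared reads are not given in the sources used here. Stretches that match with mismatches were not examined.

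The cytoplasmic actin Actb, which every cell uses, had 875 and 911 FPKM per the authors' deposited table and was not called (log2 fold 0.06, SE 0.24, but -0.14 with the median shift of all genes subtracted). Acta2 thus amounted to 2.14% of the Actb level in minus_Dox and 3.75% in plus_Dox. Such a ratio within a group does not depend on how the groups were scaled to each other. Its change between groups can still carry the trend with transcript GC content and length (below), which differs between genes. This holds for the other ratios given here too. Actg1, the other cytoplasmic actin, was listed at 0 in both groups because its depth was marked as too high for the authors' software, which is no measure of absence.

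Both tropomyosin genes rose. Tpm1, which yields muscle and non-muscle tropomyosins by splicing, stood at 161 and 296 FPKM per the authors' deposited table (1.84-fold, interval 1.41 to 2.41, log2 SE 0.20). The same table lists Tpm2, the beta-tropomyosin, at 27.3 and 47.0 FPKM (1.72-fold, interval 1.32 to 2.24, SE 0.20). Their rows match the width of the genes (Tpm1 on chromosome 9 from 66870397 to 66897213, Tpm2 on chromosome 4 from 43527583 to 43536637 in mm9). The table sums over transcript forms, so which Tpm1 form changed was not examined. The paralogues Tpm3 (149 to 205 FPKM, log2 fold 0.46, SE 0.51) and Tpm4 (127 to 134 FPKM, log2 fold 0.08, SE 0.16, but -0.12 with the median shift subtracted) were not called in the authors' deposited table. Tpm1 and Tpm2 together stood at 68.2% of the summed level of Tpm3 and Tpm4 in minus_Dox and at 101% in plus_Dox.

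Of the actin-binding proteins, Tagln showed the largest fold of the 10 genes. This gene encodes transgelin (SM22-alpha), a calponin relative and early marker of the smooth muscle lineage, and its level in the authors' deposited table was 87.4 FPKM in minus_Dox and 176 FPKM in plus_Dox. The rise was 2.01-fold, with a 95% interval of 1.58 to 2.56, and 92.9% of tested rows had a smaller fold. The Tagln row covers a stretch of chromosome 9 (45646663 to 45744141 in mm9) 15.1 times the span of the gene, shared with 5 other rows. The 4 that were tested (Pcsk7, Bace1, Rnf214 and Gm16536, chosen after their values were seen) had log2 folds from -0.22 to 0.30, none called, at levels of at most 7.15 FPKM in the authors' deposited table. The level of Tagln thus exceeded that of every tested neighbour in its stretch by more than 10 times.

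Both calponins, which bind actin filaments and dampen myosin activity, rose. Cnn1, the form typical of smooth muscle, rose from 25.9 to 43.3 FPKM per the authors' deposited table (1.67-fold, interval 1.34 to 2.07), and Cnn2, a more widely expressed form, from 40.9 to 69.3 FPKM (1.69-fold, interval 1.34 to 2.14). The rows lie on chromosome 9 from 21903725 to 21914074 and on chromosome 10 from 79451329 to 79458807 in mm9. Cnn3, the paralogue that is not tied to smooth muscle, was listed at 151 and 168 FPKM and not called (log2 fold 0.15, SE 0.16, but -0.046 with the median shift subtracted). The summed level of Cnn1 and Cnn2 was 44.2% of that of Cnn3 in minus_Dox and 66.9% in plus_Dox. The transgelin paralogues Tagln2 (75.0 to 104.8 FPKM, log2 fold 0.48, SE 0.16, q = 0.0327) and Tagln3 (2.84 to 4.75 FPKM, log2 fold 0.74, SE 0.23, q = 0.0176) rose in the authors' deposited table. Neither passed with the median shift subtracted (q = 0.349 and q = 0.135) or after subtraction of the trend with transcript GC content and length, which left Tagln2 at -0.065 and Tagln3 at 0.24. Tagln stood at 1.17 times the level of Tagln2 in minus_Dox and 1.68 times in plus_Dox.

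Myl9, the regulatory myosin light chain of smooth muscle, was listed at 41.5 and 60.3 FPKM in the authors' deposited table (chromosome 2 from 156601156 to 156607394 in mm9). Its 1.45-fold difference, with an interval of 1.08 to 1.95, did not pass (q = 0.0888). The non-muscle forms Myl12a (238 to 282 FPKM) and Myl12b (189 to 225 FPKM), a pair chosen with its values in view, were not called either, and Myl9 stood at 9.71% and 11.9% of their sum. Both Myl12 rows list the same stretch of 622 kb on chromosome 17, and how reads were divided there was not examined. After subtraction of the trend the log2 folds were -0.11 for Myl9, -0.052 for Myl12a and -0.094 for Myl12b. Myl6, the essential light chain shared by smooth and non-muscle myosin, rose from 733 to 1280 FPKM per the authors' deposited table (1.75-fold, interval 1.39 to 2.19). The list of paralogues, which also holds non-muscle myosin heavy chains, had 12 tested genes. Of these, 3 rose (Myl6, Tagln2 and Tagln3) and 9 were not called, with a median log2 fold of 0.38, where 8.98% of all tested rows were called higher. With the median shift subtracted Myl6 alone passed, and after subtraction of the trend 0 passed, with a median of -0.033. Whether the contractile forms and their paralogues differ in fold was not tested.

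**Figure D3:**
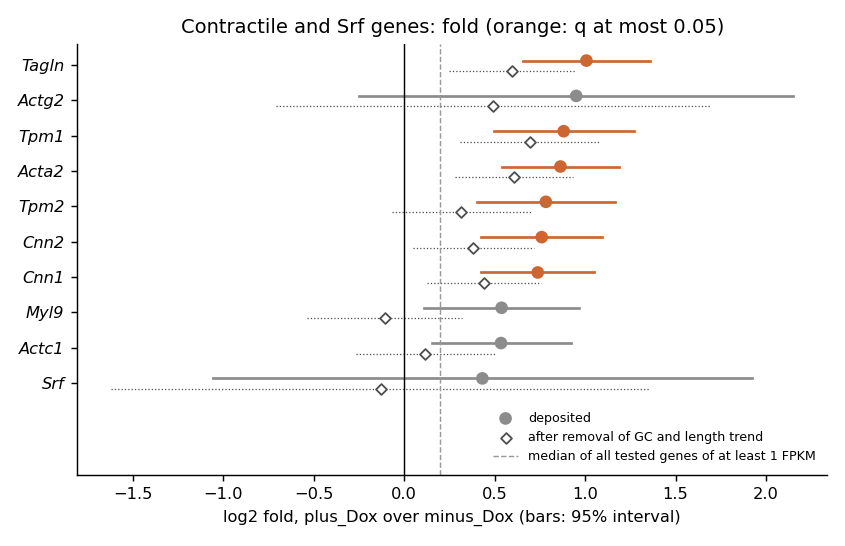
Log2 fold of plus_Dox over minus_Dox for each gene, with bars for the 95% interval implied by the authors' statistic (orange where called, grey where not), and open diamonds with dotted bars for the value after removal of the GC and length trend. The deposited values lie right of the dashed median of all genes (0.20) for all 10 genes, and the diamonds of Srf (-0.13) and Myl9 (-0.11) lie left of 0.

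Folds in this table followed the composition of the transcripts across all genes. Across 11596 tested genes with at least 1 FPKM, Spearman's coefficient of the log2 fold was 0.65 with the GC content of the transcript and -0.47 with its length, as a description across genes, which share the libraries and are not independent replicates. The longest transcripts of the 10 genes had GC contents from 49.6% (Acta2) to 64.4% (Srf), with a median of 52.6%, against 50.3% for all these genes. They were also shorter, with a median of 2105 nt against 2912 nt. Whether the log2 fold follows GC content within these 10 chosen genes was not tested. Acta2 (49.6%) and Tpm1 (49.7%), the lowest in GC content, had log2 folds of 0.86 and 0.88. Myl9 (56.6%) and Srf (64.4%), the highest, had 0.54 (SE 0.22) and 0.43 (SE 0.76). A smooth curve on both properties gave values for the 10 genes between 0.18 (Tpm1) and 0.65 (Myl9). After it was subtracted, their median log2 fold was 0.41 and 8 of 10 were above 0.

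Of the 6 calls, 3 passed again after this subtraction: Tpm1 at a log2 fold of 0.70 (q = 0.0253), Acta2 at 0.61 (q = 0.0168) and Tagln at 0.60 (q = 0.0417). Cnn1 (0.44, q = 0.157), Cnn2 (0.38, q = 0.399) and Tpm2 (0.32, q = 0.790) stayed above 0 without passing. Over all genes 2.2% were called after the subtraction, 1.25% higher and 0.954% lower. Subtracting only the median shift of all genes kept all 6 calls, with log2 folds from 0.54 (Cnn1) to 0.81 (Tagln). Of all genes 9.56% were then called, 3.47% higher and 6.1% lower. The cause of the relation with composition was not tested.

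Other thresholds left the picture for the contractile genes much the same, apart from a minimum fold. At a q of at most 0.01 the same 6 were called, where 6.67% of all rows were (4.97% higher and 1.69% lower). At a q of at most 0.1 Actc1 and Myl9 joined them, for 8 of 10 against 16.3% of all rows (12.1% higher and 4.23% lower). With at least a 2-fold difference only Tagln was left, against 2.71% of all rows (1.9% higher and 0.806% lower). Actg2 fell below a minimum of 1 FPKM in the higher group, where 6 of the other 9 genes were called against 16.5% of rows (12.3% higher and 4.23% lower). The same 9 genes passed a minimum of 5 FPKM with the same 6 calls, where 18.9% of rows were called (14.9% higher and 4% lower).

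**Figure D4:**
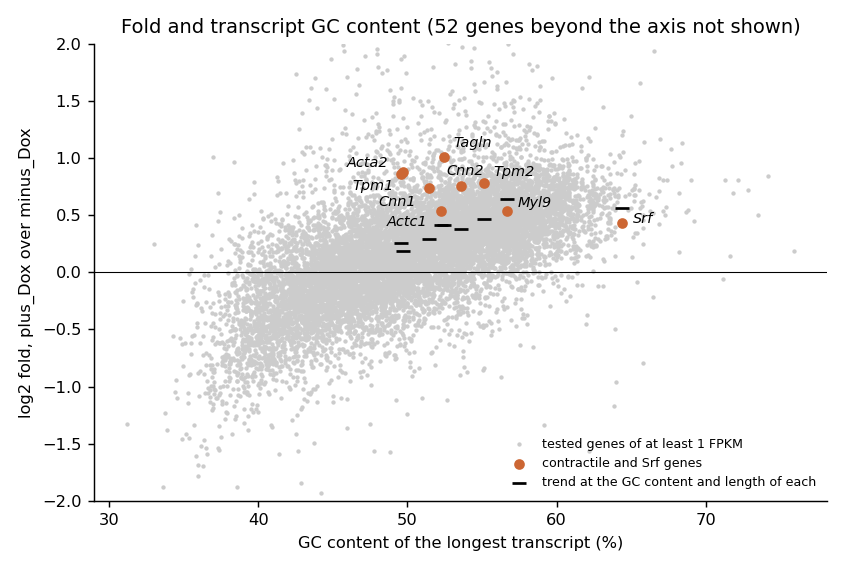
Log2 fold against the GC content (%) of the longest transcript for 11596 tested genes of at least 1 FPKM (grey), with the contractile and Srf genes in orange and the fitted trend at the GC content and length of each as a black dash. Acta2, Tpm1 and Tagln stand farthest above their dashes, Myl9 and Srf lie below theirs, and Actg2, under 1 FPKM, is left out.

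The wider set of smooth muscle contraction genes gave 3 calls. Of 18 tested, 3 (16.7%) rose and 15 were not called, where 8.98% of all tested rows were called higher. The median log2 fold of the 18 was -0.01, below that of all genes. The rises in the authors' deposited table were in Pdlim7, an actin-associated adaptor (42.1 to 76.4 FPKM with a log2 fold of 0.86, SE 0.24), Hspb1, a small heat shock protein that binds actin (50.3 to 87.0 FPKM, 0.79, SE 0.17), and the low-level Lmod1, a leiomodin that nucleates actin filaments (0.246 to 0.491 FPKM, 1.00, SE 0.29). None of the 3 passed after the trend was subtracted. With the median shift subtracted the list held 1 call higher and 1 lower (Ppp1r12a, -0.53, q = 0.0290, named after its value was seen). Of all rows 3.47% were then called higher and 6.1% lower. Myh11, the smooth muscle myosin heavy chain and defining marker of the mature cell type, was near absent at 0.0736 and 0.0663 FPKM in the authors' deposited table. Myocd, the cofactor that drives the smooth muscle programme, was listed at 0.0603 and 0.162 FPKM with a log2 SE of 5.14. Smtn (11.9 to 15.7 FPKM) and Des (3.36 to 4.50 FPKM), which encode smoothelin and desmin, were not called. Of 4 markers of pluripotent cells, Pou5f1 stood at 820 and 1510 FPKM and was not called (q = 0.0547), while Nanog rose (28.6 to 109.7 FPKM, log2 fold 1.94, SE 0.19) and Utf1 rose (260 to 362 FPKM, 0.48, SE 0.16). Sox2 fell (56.2 to 30.9 FPKM, -0.86, SE 0.17, in a row 578 kb wide), and Sox2 and Nanog, but not Utf1, passed again after subtraction of the trend. The name smooth muscle therefore refers to these genes, and no smooth muscle cell type is claimed for these libraries.

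Partners of Srf and genes of actin signalling were set beside the contractile genes. Mkl1 (5.79 to 6.71 FPKM, log2 fold 0.21, SE 0.54) and Mkl2 (2.27 to 1.63 FPKM, log2 fold -0.48, SE 0.42), as listed by the authors' deposited table, were not called. Elk1 shares its row with Uxt, and that row was not called either. Of 20 tested cofactor and actin-signalling genes, 1 rose and 2 fell, where 8.98% of all tested rows were called higher and 3.22% lower. The rise was in Rhoc, a small GTPase that promotes contractile actin (52.0 to 94.5 FPKM, log2 fold 0.86, SE 0.18). The falls were in the kinase genes Rock1 (10.03 to 5.98 FPKM, -0.75, SE 0.17) and Rock2 (8.54 to 5.94 FPKM, -0.52, SE 0.17), whose products promote myosin activity. The GC contents of these 3 transcripts were 59.1%, 40.2% and 41.4%, and none passed after the trend was subtracted.

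Cytoskeletal targets of Mkl and Srf included several rises. Over all tested rows 8.98% were called higher. Of the 22 tested here, 6 rose (27.3%) and 16 were not called, with a median log2 fold of 0.22. The largest in the authors' deposited table were Tgfb1i1 (Hic-5, a focal adhesion adaptor; 2.36 to 4.76 FPKM, log2 fold 1.01, SE 0.28), Zyx (zyxin of stress fibres; 27.1 to 52.9 FPKM, 0.97, SE 0.22) and Ctgf (a secreted matrix protein; 9.80 to 17.9 FPKM, 0.87, SE 0.26). Tuft1 (0.75, SE 0.25) and Cyr61 (0.56, SE 0.16) followed, and Itga5, an integrin subunit named after its value was seen, was the sixth. The Ctgf row covers 49.2 kb, for a longest transcript of 2490 nt. After subtraction of the trend 0 of the 22 passed, where 2.2% of all genes did. Tgfb1i1 came nearest at a log2 fold of 0.86 (q = 0.0697). Vcl, Flna and Actn1, which encode the adhesion and actin cross-linking proteins vinculin, filamin and actinin and were named after their values were seen, were not called.

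The immediate early targets that Srf shares with Elk factors gave 3 rises among 15 tested, with a median log2 fold of 0.09. Per the authors' deposited table Ier2 went from 34.1 to 62.1 FPKM (log2 fold 0.87, SE 0.16), Junb from 8.22 to 14.4 FPKM (0.81, SE 0.18) and Nr4a1 from 6.78 to 10.9 FPKM (0.69, SE 0.18). Fos and Egr1, the best known of these genes and named after their values were seen, were not called, at 0.613 to 0.555 FPKM and 5.62 to 4.79 FPKM. None of the 15 was called after the trend was subtracted. The 7 related lists together held 115 tested genes, of which 18 rose and 2 fell, with a median log2 fold of 0.25. Over all tested rows the shares were 8.98% higher and 3.22% lower. With the median shift of all genes subtracted, the 115 held 7 calls higher and 5 lower, where 3.47% and 6.1% of all rows were called. After subtraction of the trend 0 of them were called higher and 1 lower, Rhob (-0.63, q = 0.0180), named after its value was seen.

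**Figure D5:**
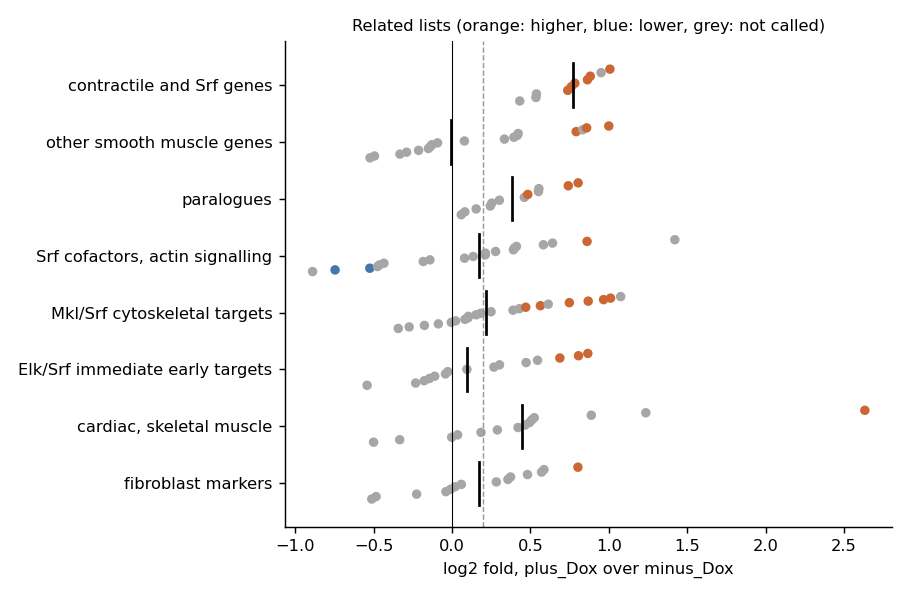
Log2 fold of plus_Dox over minus_Dox for every tested gene of the contractile and Srf set and of 7 related lists, 1 point per gene (orange called higher, blue called lower, grey not called), with black bars for list medians and a dashed line at the median of all genes (0.20). The contractile and Srf genes lie between 0.43 and 1.01 with a median of 0.77, while the medians of the related lists lie between -0.01 and 0.44.

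Markers of other cell types that express these genes were set beside them. Cardiac and skeletal muscle markers summed to 18.1 FPKM over 18 genes in minus_Dox and 23.9 FPKM in plus_Dox, and no gene was listed at 0 in both groups. Tnni3, counted in these sums, shares its row with 6030429G01Rik. Of 14 tested, 1 was called, the skeletal muscle factor Myf5, at 0.0124 and 0.0767 FPKM in the authors' deposited table (q = 0.0432). Over all tested rows 12.2% were called. Tnnt2 (0.0489 and 0.115 FPKM), Nkx2-5 (0.143 and 0.197 FPKM), Myl4 (0.863 and 1.23 FPKM), Actn2 (1.23 and 1.40 FPKM) and Myl7 (6.37 and 8.53 FPKM) were not called, and Myh6 was listed at 1.54 FPKM in both groups. Myod1 was listed at 0.164 and 0.116 FPKM, and Myog and Ckm were below 0.04 FPKM and not tested.

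Fibroblast markers, relevant because of the feeder layer and because fibroblasts hold Acta2 and Tagln, summed to 34.6 FPKM over 17 genes in minus_Dox and 42.7 FPKM in plus_Dox. Of 14 tested, 1 rose, the mesenchymal transcription factor Twist1 (1.21 to 2.12 FPKM, or 0.80 in log2 with an SE of 0.26, per the authors' deposited table), and 13 were not called. Over all tested rows 8.98% were called higher and 3.22% lower. With the median shift subtracted Twist1 did not pass (q = 0.132) and Pdgfra, named after its value was seen, was called lower (-0.71, q = 0.0152), and neither passed after subtraction of the trend. The defining markers were not called: Thy1 (11.9 and 16.6 FPKM), Dcn (2.12 and 1.52 FPKM), Col1a2 (1.60 and 1.95 FPKM), Col1a1 (0.888 and 1.32 FPKM), Postn (0.755 and 0.787 FPKM) and Col3a1 (0.341 and 0.437 FPKM). No fibroblast marker was listed at 0 in both groups. Fn1, counted in these sums, was marked as failed by the authors' software and was not tested. Tagln alone was listed above the sum of the 17 fibroblast markers in each group. No library of fibroblasts alone is among the 6, so the source of Tagln was not tested. The part of such cells in the levels of the contractile genes was not tested.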

How the data were processed

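Poly(A)-selected RNA was sequenced from 6 libraries, 3 of minus_Dox and 3 of plus_Dox, grouped by sample title. The tools in the submitters' processing notes are Cuffdiff, Cufflinks 2.0.2, TopHat2 2.0.8, Picard and Bowtie, and the build is mm9. Which annotation was used is not given there. Per the file headers, the authors deposited 1 FPKM value per gene and group, a log2 fold (recorded as a score here because infinite folds are coded as a very large number), a test statistic (a score without fixed range) and a p-value and q-value. Columns of single libraries number 0, so the authors' own test was used at q of at most 0.05, and no model was fitted to libraries. Depth is unknown. Starts were raised by 1 to count from 1.

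For the 17830 tested rows with a finite fold, p-values were checked against a two-sided normal test of the deposited statistic (0 differed by over 1e-05). The SE is the log2 fold divided by the statistic, without sign, and 95% intervals use it. The GC and length trend came from a least-squares fit of cubic splines (6 knots each) over 11596 genes with at least 1 FPKM, using the longest basic transcript per symbol in GENCODE vM21. It was subtracted, and a two-sided normal test with Benjamini-Hochberg adjustment run over 16658 rows (92.0% of those tested). No check of this step on simulated data is reported here. Promoters came from RefSeq (GRCm38.p6), matched by symbol and not by coordinates. Python 3.11.15, scipy 1.17.1 and scikit-learn 1.9.0 were used.

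The 10 genes and 7 related lists were chosen with earlier results of these data known. Genes were named by rule: Lef1, the 10 genes, up to 5 calls per list, the largest by fold among those with 1 FPKM or more, the 2 highest members of lists without a call, members of the actin, tropomyosin, calponin and transgelin families, Srf cofactors and defining markers of cell types. Exceptions are stated. Acta1 was not analysed here. Alternatives were q-values of 0.01 and 0.1, a 2-fold minimum, minima of 1 and 5 FPKM, pseudocounts of 1 and 0.1 FPKM, median-ratio scaling (subtraction of the median log2 fold of genes with at least 1 FPKM), the trend removal, and leaving out rows whose locus exceeds 3 times the gene's span.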

Additional observations from a re-analysis of the deposited data

How the results depend on the processing

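Of the 10 contractile and Srf genes 6 were called, and 6 were also called with the median-ratio scaling. A 2-fold minimum left 1 (Tagln), and the GC and length trend removal left 3. In the related lists the 2-fold minimum left 0 calls among the other smooth muscle genes, the paralogues, the Srf cofactors, the immediate early targets and the fibroblast markers, and 1 among the Mkl/Srf cytoskeletal targets. The trend removal left 0 of the calls in each of these lists and in the cardiac and skeletal muscle markers. Among the Srf cofactors it gave 1 new call, a fall in Rhob (-0.63, q = 0.0180), which the authors' test had not called (q = 0.746). A q-value of 0.01 left 1 call among the paralogues, 3 among the cytoskeletal targets and 0 among the muscle and the fibroblast markers, and a q-value of 0.1 gave 2 fibroblast calls. The median-ratio scaling left 1 paralogue, 2 cytoskeletal targets and 0 muscle markers. Minima of 1 and 5 FPKM left 0 muscle markers, and the minimum of 5 FPKM left 0 fibroblast markers. In all other settings these totals stayed within 1.5 times the main count. With the median-ratio scaling the direction of calls shifted over all rows, from 8.98% higher and 3.22% lower to 3.47% higher and 6.1% lower. The fibroblast markers went from 1 higher and 0 lower to 0 higher and 1 lower. The other smooth muscle genes went from 3 higher and 0 lower to 1 higher and 1 lower. The Srf cofactors went from 1 higher and 2 lower to 1 higher and 3 lower. Shares of all rows called at the other settings are given in the Results.

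Signs turned for some single genes. After trend removal the log2 folds were -0.11 for Myl9, -0.13 for Srf, -0.065 for Tagln2, -0.27 for Actb, -0.014 for Tpm4, -0.098 for Cnn3, -0.18 for Mkl1, -0.082 for Smtn, -0.017 for Des, -0.31 for Myl7, -0.14 for Myl4, -0.21 for Nkx2-5, -0.21 for Actn2, -0.051 for Thy1 and -0.23 for Utf1, of which Tagln2 and Utf1 had been called. With the median-ratio scaling they were -0.14 for Actb, -0.12 for Tpm4, -0.046 for Cnn3, -0.015 for Actn2 and -0.14 for Postn. With a pseudocount of 1 FPKM 6 named genes moved by at least their SE. Their log2 differences were then 0.10 for Actg2, 0.088 for Tnnt2, 0.30 for Col1a1, 0.26 for Lmod1, 0.089 for Myf5 and 0.49 for Twist1. Of these, Lmod1, Myf5 and Twist1 had been called. No paired analysis was possible because the table holds no values of single libraries, and for the same reason no library could be left out. The cause of these shifts was not tested.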

Other observations

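Genes with a CArG box in their promoter window were looked at across the whole table, and not only among the contractile genes. Among 10394 tested genes with a RefSeq window, 166 held the strict form in a window. Of these, 16 (9.64%) were called higher and 5 (3.01%) lower, against 9.92% and 3.60% of all genes with a window. Their median log2 fold was 0.25, against 0.18, and after removal of the GC and length trend it was -0.025, against -0.023. After that removal 1 of the 166 was called higher (0.602%, against 1.27%), and that gene was Lef1, 1 of whose windows holds the box. Beside Cnn2 and Myl6, the called genes of this set included Npm3, a histone chaperone (154 to 353 FPKM by the deposited values of the authors, 1.20 in log2, SE 0.23), Anxa5, an annexin (8.33 to 15.3 FPKM, 0.87, SE 0.18), and Trip6, a zyxin relative (43.4 to 69.7 FPKM, 0.68, SE 0.16), all chosen after their values were seen.

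Genes with a Tcf/Lef word in their window numbered 1461, of which 9.79% were called higher and 3.70% lower by the authors' test. Once the trend was removed, 27 of 1458 were called higher (1.85%, against 1.27% of all genes with a window). These shares are descriptions of 1 short window per start and were not tested against each other.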
